A study of Mus musculus with 8 samples.

Results

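The response of RAW264.7 cells to Lactobacillus acidophilus was compared between its late phase (4 h and 6 h) and its early phase (1 h and 2 h). The comparison rested on 4 of the 8 two-colour Agilent mouse arrays of the series, 2 late and 2 early. These were all the arrays of cells given L. acidophilus MTCC-10307, and the other 4 held cells given Bacillus clausii MTCC-8326. RAW264.7 is a macrophage-like line from a virus-induced tumour of a BALB/c mouse, so all arrays describe 1 transformed line and not primary macrophages. The cells grew in DMEM with heat-inactivated serum and received the bacteria at a multiplicity of infection of 100. Each array carried RNA of treated cells in the red channel (Cy5) and RNA of untreated cells of the same time in the green channel (Cy3). Equal amounts of RNA from 3 cultures were pooled for each, so an array is 1 pool and the spread between cultures cannot be seen. There were 0 dye swaps, but a dye effect that is constant for a gene cancels in a difference between late and early ratios. Each time had its own position on the slide, so time and position cannot be told apart.

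L. acidophilus is a Gram-positive lactic acid bacterium, and macrophages sense the lipoproteins, lipoteichoic acid and peptidoglycan of such bacteria through Toll-like and NOD receptors. The first wave of the macrophage response is made up of primary response genes, among them chemokine and immediate early genes, whose RNAs are mostly short-lived. Stress programmes run by the factors ATF4, HIF-1 and SREBP2 and by the sensors of the endoplasmic reticulum also set the RNA content of activated macrophages.

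On the 4 L. acidophilus arrays, the share of probes detected well over background ran between 44.8% and 51.6% for treated and between 42.8% and 47.5% for untreated cells, lowest for both at 6 h, and 0 probes were saturated. Of 9 macrophage markers, 7 were detected in both channels of all 4 arrays, and Itgam was detected in 2 of the 4 untreated channels. Of the markers of epithelial cells, fibroblasts, neutrophils and endothelial cells, 0 were detected throughout, while Cd4 and Lck, known from T cells, were. Across 14472 genes the log2 ratios correlated with r = 0.612 between 4 h and 6 h and with r = 0.744 between 1 h and 2 h, against 0.289 to 0.617 for the pairs of 1 late and 1 early array. These genes share their arrays and their dyes, and the values are descriptions.

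The largest late changes were falls in genes that treatment had raised in the first 2 h. The chemokine genes Ccl4, Ccl3 and Cxcl2, the stress genes Herpud1, Chac1 and Ddit3 and the hypoxia target Adm lay above the untreated cells early, and their ratios were 2.24-fold to 3.50-fold lower late. Esyt3, Mllt11 and Tmem268 led the rises, and their mean ratios lay above the untreated cells late and below them early. Limma called 165 of the 14472 genes at an adjusted p under 0.05, which is 1.14% of those tested: 82 higher late (0.567%) and 83 lower late (0.574%). Changes of at least 2-fold were found for 4 of the 82 and 13 of the 83. At an unadjusted p under 0.05, limma had 2444 of the 14472 genes, with 7.57% of all genes higher late and 9.32% lower. Counts of list members at that threshold are to be read against these shares, and counts of called members against 0.567% higher and 0.574% lower. The late minus early difference was negative for 7170 of all 14472 genes.

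These calls come from 2 arrays a side with 2 residual degrees of freedom, helped by a prior spread estimated over all genes, and the 2 times of a phase stand in for replicates. With the scanner software's own processed signals, limma called 0 genes, with 1554 at an unadjusted p under 0.05, and all 165 genes kept their direction there. Fits that dropped a single array also kept all 165 directions, but this was fixed in advance and is no test of them. Both late ratios of each of the 165 lay on the same side of both early ones, which also held for 7036 of all 14472 genes. The median ratio of the differences of the 165 to those of the full fit ranged from 0.919 (6 h array dropped) to 1.08 (4 h array dropped). An exact permutation test of a single gene over 2 against 2 arrays cannot go below p = 0.333.

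**Figure D1:**
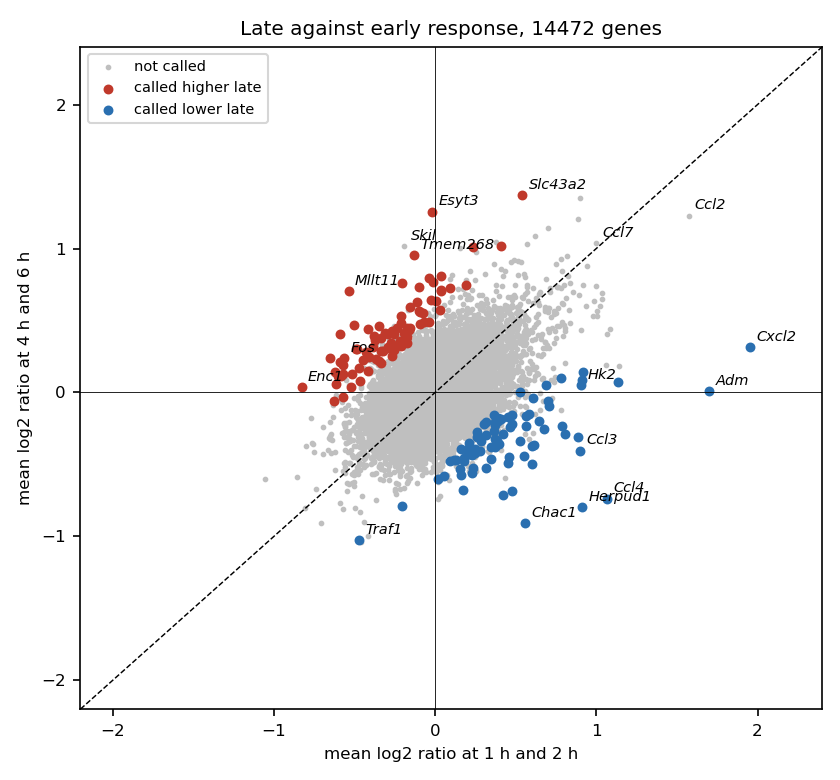
Mean log2 ratio of treated over untreated cells at 4 h and 6 h (vertical axis) against the mean at 1 h and 2 h (horizontal axis) for the 14472 genes tested, with the 82 genes called higher late in red, the 83 called lower late in blue and the line of equal response dashed. Cxcl2 and Adm lie far to the right and near 0 late, Ccl4 and Herpud1 lie at the lower right, and Ccl2 and Ccl7 lie near the line.

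Called genes were sorted by whether their mean ratio passed 1.5-fold (0.58 on the log2 scale) in each phase. Of the 83 genes called lower, 20 had passed it early and no longer did late, 7 passed it late only, 54 passed it in neither phase, and 2, Ccl4 and Herpud1, passed it early upward and late downward. Of the 82 called higher, 19 passed it late only, 8 early only and 55 in neither phase. Of the 165, 0 stayed past it with 1 sign in both phases. Among all 14472 genes, 131 were of the early-only kind, 137 of the late-only kind and 47 held past 1.5-fold in both phases. The sign of the mean ratio differed between late and early for 72 of the 83 and for 70 of the 82, against 4548 of all 14472 genes. For 60 of the 83 and 57 of the 82 the 6 h array lay further from the early arrays than the 4 h array did, against 9071 of all 14472.

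**Figure D2:**
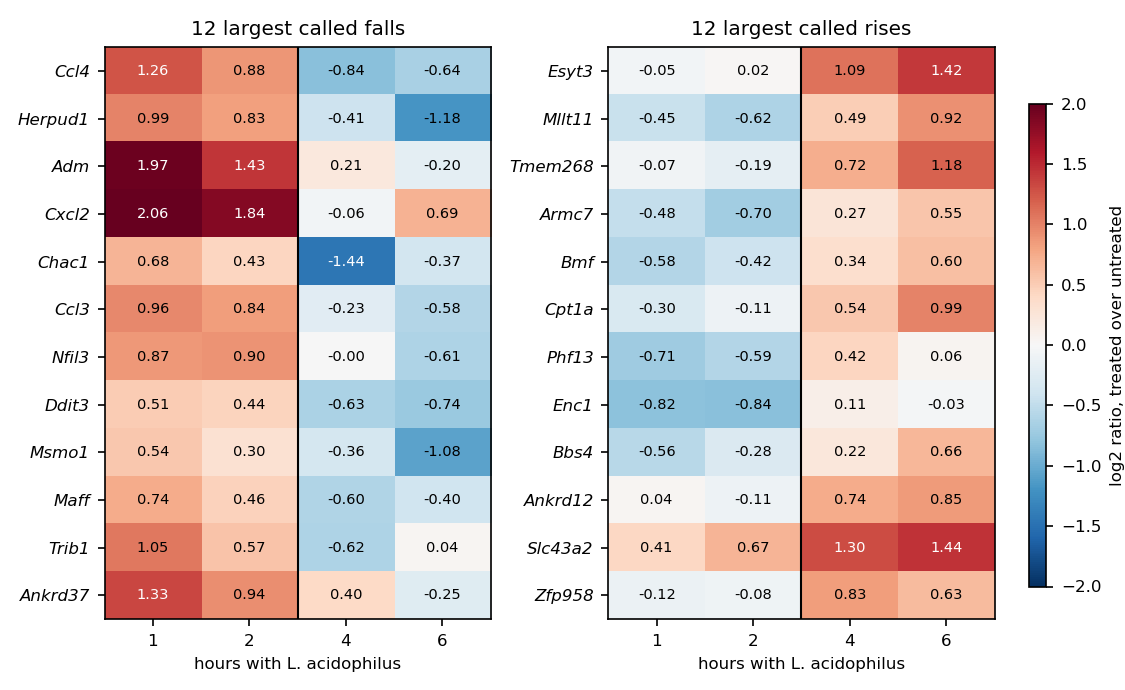
Log2 ratio of treated over untreated cells on each L. acidophilus array (columns, hours of treatment) for the 12 called genes with the largest falls (left) and the 12 with the largest rises (right), late arrays to the right of the black line. Ccl4 reads -0.84 and -0.64 in the late columns against 1.26 and 0.88 in the early ones, and Esyt3 reads 1.09 and 1.42 against -0.05 and 0.02.

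Chemokines, secreted proteins that draw leukocytes to a site, gave the largest fall. Ccl4, which attracts monocytes and T cells, had log2 ratios of -0.84 at 4 h and -0.64 at 6 h, against 1.26 at 1 h and 0.88 at 2 h. Both late arrays were below the untreated cells and both early arrays above them, and the difference was -1.81 ± 0.14 (SE; adjusted p = 0.00152). Ccl3, its neighbour and close relative, had -0.23 and -0.58 late, against 0.96 and 0.84 early, a difference of -1.31 ± 0.13 (adjusted p = 0.00472). Both genes lie on chromosome 11, where the probes map 16.7 kb apart in the mm9 build. Because the genes are homologous, the 60-base probes that carry these values are shown; they share no run longer than 5 bases. The Ccl4 probe lies at chr11:83478052-83478111 on the plus strand and the Ccl3 probe at chr11:83461358-83461417 on the minus strand.
Ccl4 probe: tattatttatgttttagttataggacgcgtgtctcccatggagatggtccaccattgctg
Ccl3 probe: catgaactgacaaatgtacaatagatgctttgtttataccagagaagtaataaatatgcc

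The channels behind the 2 ratios differed. In the treated channel the Ccl4 signal, on the log2 intensity scale, was 11.33 and 11.48 late, against 13.60 and 13.05 early, while the untreated channel stayed between 12.12 and 12.34 on all 4 arrays. For Ccl3 the treated channel gave 11.67 and 11.87 late, against 11.65 and 12.02 early, and the untreated channel gave 11.90 and 12.45 late, against 10.69 and 11.18 early. The late minus early change of Ccl3 was thus -0.07 in the treated channel and 1.24 in the untreated channel. Single-channel values also hold whatever a spot shares between its channels, which the ratio removes.

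Cxcl2, a neutrophil attractant that acts through CXCR2, had the highest early ratios among the 12 largest falls. Its log2 ratios were -0.06 at 4 h and 0.69 at 6 h, against 2.06 at 1 h and 1.84 at 2 h, so the late arrays lay below the early ones but the 6 h array was again above the untreated cells. The difference was -1.64 ± 0.20 (adjusted p = 0.0123). Its promoter is shown because it holds a match to the NF-kB motif GGANTTTCC, searched on both strands in the 250 bases before the start. Among the called chemokine genes, only Cxcl2 and Ccl3 had a promoter window to search. The 80 bases come from RefSeq in the GRCm38.p6 build, chr5:90903767-90903846 on the plus strand, and the motif, in capitals, starts 96 bases before the gene's start.
Cxcl2 promoter: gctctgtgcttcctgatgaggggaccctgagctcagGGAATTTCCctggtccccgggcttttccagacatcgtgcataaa
The window of Ccl3 held no match to it, and Ccl4 was not matched to an entry.

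The other tested chemokines were not called. Of 17 listed chemokine genes 12 were tested, 3 were called lower and 0 higher, and the median difference of the 12 was 0.04, against 0.00 over all genes. At an unadjusted p under 0.05, 5 of the 12 were lower and 0 higher, against 9.32% and 7.57% of all genes tested. The 5 were the 3 called genes, Ccl2 and Ccl9 (-0.28). The list's median turned to -0.13 with the scanner software's processed signals and to -0.28 over the probes well above background in both channels of all 4 arrays. Ccl2, the main attractant of monocytes, had 1.19 and 1.27 late, against 1.37 and 1.78 early, and its difference of -0.34 did not pass the test (adjusted p = 0.246). It was -0.55 without the 1 h array and -0.14 without the 2 h array. Ccl7, a related monocyte attractant, had 0.84 and 1.24 late, against 0.77 and 1.23 early (0.04 ± 0.17, adjusted p = 0.939). Both stayed more than 1.5-fold above the untreated cells on all 4 arrays. Cxcl10, an interferon-induced attractant of T cells, stayed between 0.19 and 0.42. The other listed chemokines, Cxcl1, Cxcl3, Ccl12, Ccl22 and Cx3cl1, did not pass the filter on dim probes and were not tested.

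**Figure D3:**
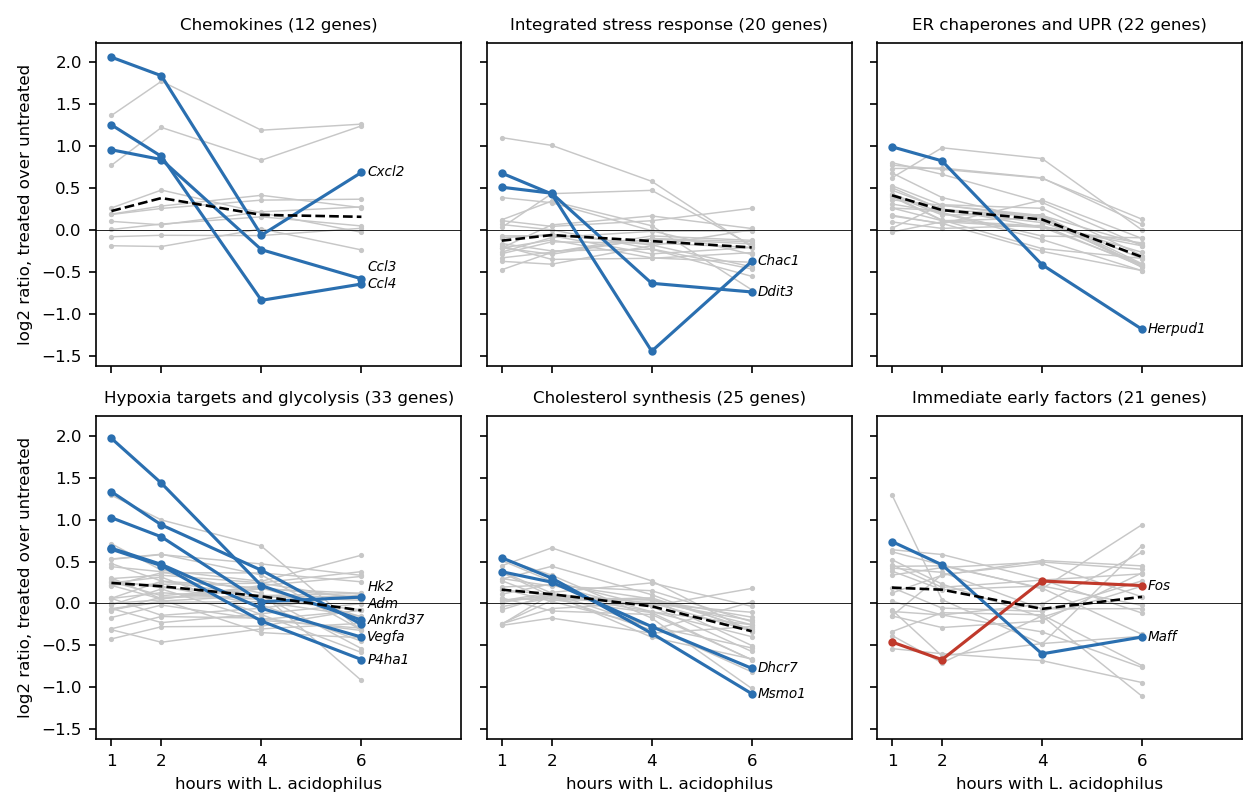
Log2 ratio of treated over untreated cells against hours of treatment for the tested members of 6 gene lists, 1 line a gene, with genes called lower late in blue, called higher late in red, other members in grey and the list median dashed. Ccl4, Ccl3 and Cxcl2 drop between 2 h and 4 h while 2 grey chemokine lines, Ccl2 and Ccl7, stay near 1, and the medians of the chaperone and cholesterol lists are lowest at 6 h.

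Inflammatory mediators outside the chemokines held no call. Of 24 listed cytokines and mediators 14 were tested and limma called 0 in either direction, with a median difference of -0.01. At an unadjusted p under 0.05, limma had 4 of the 14, against 2444 of all 14472 genes. Tnf, a central inflammatory cytokine, had 0.49 and 0.38 late, against 0.31 and -0.25 early (difference 0.41 ± 0.16, adjusted p = 0.245, and 0.13 to 0.69 with 1 array left out, lowest without the 2 h and highest without the 1 h array). Tnfsf13b, the B cell survival factor BAFF, had the largest difference of the list at 0.85 and did not pass the test. Il1b was well above background in the treated channel of 2 arrays and in no untreated channel, with ratios within -0.08 to 0.18. Ptgs2, the inducible cyclooxygenase, had -0.36 and 0.33 late, against -0.50 and -0.74 early (adjusted p = 0.152; 0.26 without the 6 h and 0.94 without the 4 h array). Among the 13 tested NF-kB subunits and feedback inhibitors limma called 0, with 4 at an unadjusted p under 0.05, against the same share of all genes. Nfkbia and Tnfaip3, which shut the pathway off, had differences of -0.36 and -0.21. That of Tnfaip3 ran from -0.40 without the 2 h array to -0.01 without the 1 h array.

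Signalling proteins close to the receptors included 2 called falls. Ticam1, the TRIF adaptor of Toll-like receptor signalling, had 0.00 and -0.31 late, against 0.42 and 0.53 early (-0.63 ± 0.13, adjusted p = 0.0447), 1 of 18 tested genes of its list. Traf1, an adaptor of TNF receptors, was below the untreated cells on all 4 arrays and more so late, with -1.08 and -0.98, against -0.40 and -0.55 early (adjusted p = 0.046). Of the 12 tested MAP kinase phosphatases and Sprouty or Spred genes, 2 were called lower: Dusp1 (-0.28 and -0.16 late, against 0.51 and 0.45 early) and Dusp4 (-0.17 and -0.54 late, against 0.28 and 0.51 early). Both encode phosphatases that switch off MAP kinases. Limma had 3 of the 12 lower and 2 higher at an unadjusted p under 0.05, against 9.32% and 7.57% of all genes tested. Trib1, a pseudokinase adaptor that targets C/EBP proteins for degradation, had -0.62 and 0.04 late, against 1.05 and 0.57 early (-1.10 ± 0.21).

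Immediate early factors held calls in both directions. Of 21 tested, 1 was called lower and 1 higher, and the median difference was -0.08. Limma had 6 of the 21 lower and 2 higher at an unadjusted p under 0.05, against 9.32% and 7.57% of all genes tested. Maff, a small Maf transcription factor, had -0.60 and -0.40 late, against 0.74 and 0.46 early (-1.10 ± 0.13, adjusted p = 0.0113). Fos, a subunit of AP-1, went the other way, with 0.27 and 0.21 late, against -0.46 and -0.67 early (0.81 ± 0.11, adjusted p = 0.0158). It was therefore below the untreated cells in both early arrays and above them in both late ones. Atf3 had 0.28 and -0.11 late, against 0.64 and 0.58 early, and missed the threshold (adjusted p = 0.0903). By its brighter probe Klf2 was at 1.29 at 1 h and at 0.05 at 2 h, so its early arrays disagreed by more than the difference of -0.57 between the phases, and a second probe gave a difference of 0.08. Egr1 was not in the tested set.

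Targets of the integrated stress response, in which phosphorylation of eIF2α favours translation of ATF4, held 2 of the largest falls. Chac1, an enzyme that breaks down glutathione, had -1.44 at 4 h and -0.37 at 6 h, against 0.68 at 1 h and 0.43 at 2 h. All late values were below the untreated cells, and the 2 late arrays differed from each other by more than the early ones did (difference -1.46 ± 0.26, or -0.93 without the 4 h array; adjusted p = 0.0377). Ddit3, which encodes the stress factor CHOP, had -0.63 and -0.74 late, against 0.51 and 0.44 early (-1.16 ± 0.11, adjusted p = 0.00407). Of 20 tested ATF4 targets 2 were called lower and 0 higher, with a median difference of -0.13, or -0.05 without the 6 h array. Ddit4, an inhibitor of mTORC1, had 0.58 and -0.20 late, against 1.10 and 1.01 early (adjusted p = 0.0711; difference -0.47 without the 6 h array). Asns and Psph, which make asparagine and serine, had differences of 0.13 and 0.30 that did not pass the test, and Atf4 itself -0.19.

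Genes of the unfolded protein response gave 1 call and a broad downward shift. Herpud1, an endoplasmic reticulum membrane protein that helps to degrade misfolded proteins, had -0.41 and -1.18 late, against 0.99 and 0.83 early (-1.71 ± 0.20, adjusted p = 0.0113). The promoters of Herpud1 and Chac1 are shown because both hold the C/EBP-ATF response element TGATGNAA, here on the reverse strand as TTGCATCA in capitals. They lie at chr8:94386281-94386360 and chr2:119351013-119351092 of GRCm38.p6 (RefSeq), both on the plus strand, and the motifs start 112 and 193 bases before the starts.
Herpud1 promoter: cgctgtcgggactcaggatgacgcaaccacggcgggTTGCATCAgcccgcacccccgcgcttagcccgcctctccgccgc
Chac1 promoter: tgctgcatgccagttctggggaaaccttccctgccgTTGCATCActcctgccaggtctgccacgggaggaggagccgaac
The window of Ddit3 held no match.

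Of the 22 tested genes of this list, 21 had a negative difference and 1 was called, and the median was -0.38. Manf, Dnajb9, Syvn1 and Sel1l, which fold proteins or remove misfolded ones in the endoplasmic reticulum, had differences of -0.54 to -0.69 with adjusted p of 0.07 to 0.08, and none passed the test. The median log2 ratio of the list was 0.13 at 4 h and -0.32 at 6 h, against 0.42 at 1 h and 0.24 at 2 h, so the 6 h array was the lowest. Of the 22 genes, 16 were lower at an unadjusted p under 0.05, against 9.32% of all genes tested. Without the 6 h array the median difference was -0.18, and without the 4 h array -0.63. Hspa5, the chaperone BiP, had 0.86 and 0.00 late, against 0.63 and 0.98 early, and its 4 h value lay between the early ones (adjusted p = 0.448). Its difference was 0.05 without the 6 h array and -0.80 without the 4 h array. Both of its channels were higher late, by 1.00 in the treated and 1.38 in the untreated one.

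Hypoxia targets, which the HIF factors switch on when oxygen is low and also in activated macrophages, held 5 called falls among 33 tested genes, with 0 called rises. Adm encodes the vasodilator peptide adrenomedullin and had 0.21 and -0.20 late, against 1.97 and 1.43 early (-1.69 ± 0.18, adjusted p = 0.00706). Ankrd37 had 0.40 and -0.25 late, against 1.33 and 0.94 early. Hk2, the inducible hexokinase, had 0.02 and 0.08 late, against 1.02 and 0.79 early (-0.86 ± 0.11, adjusted p = 0.0132). Its late arrays were both close to the untreated cells. P4ha1, a collagen prolyl hydroxylase, had -0.21 and -0.67 late, against 0.65 and 0.45 early, and Vegfa, the vascular growth factor, had -0.06 and -0.40 late, against 0.66 and 0.47 early. A second, dimmer P4ha1 probe gave a difference of -0.38, against -0.99 for the one used.

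The enzymes of glycolysis differed among themselves. The median difference of the 33 was -0.13, with 25 negative and 8 positive, and -0.08 without the 6 h array. At an unadjusted p under 0.05, 13 of the 33 were lower and 0 higher, against 9.32% and 7.57% of all genes tested. Besides Hk2, Pfkp and Pfkl, isoforms of phosphofructokinase, had differences of -0.45 and -0.40, and Pkm and Pgam1 of -0.24 and -0.15, none of them called. Eno2, an enolase outside the list that was chosen after its values were seen, was called lower with 0.25 and 0.02 late, against 1.01 and 0.82 early. Pgk1, Gpi1, Tpi1, Ldha, Gapdh and Aldoa, which also encode enzymes of glycolysis, had differences between 0.00 and 0.13, Eno1 and Hk1 had 0.18 and 0.13, and Hif1a had 0.12. Slc2a1, the main glucose transporter, had 0.68 and -0.32 late, against 1.29 and 1.00 early, and missed the threshold (adjusted p = 0.0936). The core hypoxia motif ACGTG is shown in the promoters of Hk2 and P4ha1, in capitals and in both cases on the reverse strand as CACGT. The window of Adm, which had the largest fall of the list, held no match. The stretches are chr6:82774465-82774544 on the minus strand and chr10:59323216-59323295 on the plus strand of GRCm38.p6 (RefSeq).
Hk2 promoter: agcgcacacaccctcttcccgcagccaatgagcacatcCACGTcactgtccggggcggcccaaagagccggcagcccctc
P4ha1 promoter: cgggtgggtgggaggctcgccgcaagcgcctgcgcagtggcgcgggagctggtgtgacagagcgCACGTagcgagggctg

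The same letters are frequent in promoters at large. ACGTG was found in 20 of the 87 windows of genes called lower late and 16 of the 94 windows (17.0%) of genes called higher, against 20.9% of the 12881 windows of all genes tested. For the C/EBP-ATF element the shares were 2.3% and 2.13%, against 2.26%. For NF-kB they were 3.45% (3 windows) and 1.06% (1 window), against 1.11%, and for the AP-1 motif TGANTCA 9.2% and 4.26%, against 4.84%. The cyclic AMP element TGACGTCA was found in 3.45% and 2.13%, against 2.48%, and the E-box CACGTG, which contains ACGTG, in 9.2% and 5.32%, against 7.9%. The sterol element TCACNCCAC, added after the other motifs, was found in 1.15% and 0%, against 1.1%. These shares count letters in windows and say nothing about binding.

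Cholesterol synthesis genes, which SREBP2 drives when sterols in the endoplasmic reticulum are low, had a median difference of -0.39, next to -0.38 for the unfolded protein response list. Of 25 tested genes 23 had a negative difference, 2 were called lower and 0 higher. Msmo1, a sterol demethylase, had -0.36 and -1.08 late, against 0.54 and 0.30 early (-1.14 ± 0.20, adjusted p = 0.0365). Dhcr7, the enzyme of the final step to cholesterol, had -0.28 and -0.77 late, against 0.38 and 0.25 early (-0.84 ± 0.15, adjusted p = 0.0386). No promoter window of Msmo1 or Dhcr7 held the sterol element. The demethylase Cyp51 had -0.28 and -0.82 late, against 0.38 and 0.12 early, and lay just outside the threshold (adjusted p = 0.0518). Insig1, also an SREBP2 target, had a difference of 0.06. At an unadjusted p under 0.05, 15 of the 25 were lower, against 9.32% of all genes tested. The list's median ratio was -0.03 at 4 h and -0.33 at 6 h, against 0.16 at 1 h and 0.11 at 2 h. Without the 6 h array its median difference was -0.16.

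**Figure D4:**
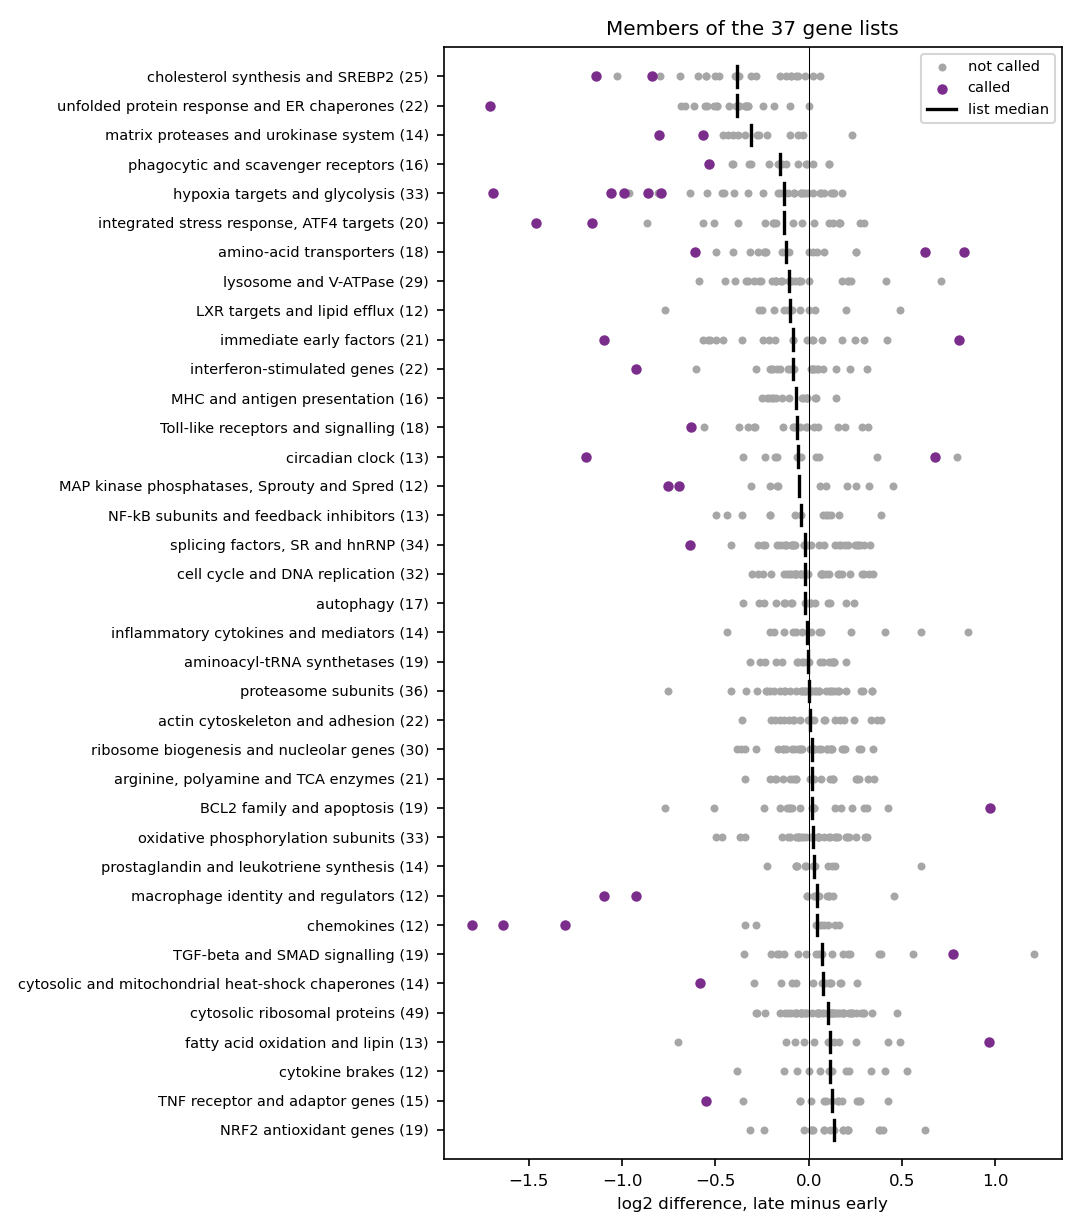
Late minus early log2 difference (horizontal axis) of every tested member of 37 gene lists (rows, with the number tested), called members in purple, other members in grey and the list median as a bar. The cholesterol, unfolded protein response and matrix protease lists have the lowest medians, and the 3 called chemokines lie far from the other members of their list.

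Among macrophage genes, Irf8, a factor that commits cells to the monocyte lineage, had 0.06 and -0.57 late, against 0.72 and 0.63 early (-0.93 ± 0.17, or -0.61 without the 6 h array; adjusted p = 0.0417). Cd68, a lysosomal glycoprotein and macrophage marker, had -0.28 and -0.27 late, against 0.28 and 0.23 early (-0.53 ± 0.10, adjusted p = 0.0422). Of the 8 tested macrophage markers 7 had negative differences, 1 (Cd68) was called, and the median was -0.24. At an unadjusted p under 0.05, 4 were lower and 0 higher, against 9.32% and 7.57% of all genes tested. Among those not called, the differences ran between -0.56 for Cd14, a co-receptor for lipopolysaccharide, and 0.11 for Csf1r, the receptor for the macrophage growth factor CSF1. A lower amount of RNA per cell and a smaller share of such cells cannot be told apart in bulk RNA. Of 29 tested lysosomal genes limma called 0, with a median of -0.11 and 23 of the 29 negative. At an unadjusted p under 0.05, limma had 7 of the 29, against 2444 of all 14472 genes. Of the 14 tested matrix proteases and urokinase system genes 2 were called lower, Adamts1 (-0.80 ± 0.13) and Plaur, the urokinase receptor (-0.57 ± 0.11). Negative differences were found for 13 of the 14, against 7170 of all 14472 genes. Limma had 9 of the 14 lower and 1 higher at an unadjusted p under 0.05, against 9.32% and 7.57% of all genes tested. Plau, the urokinase itself, stayed above the untreated cells throughout, with 0.70 and 0.60 late, against 1.13 and 0.94 early, and did not pass the test.

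Among the genes called higher late, 4 had changed at least 2-fold: Esyt3, Mllt11, Tmem268 and Armc7. Esyt3, an extended synaptotagmin that tethers the endoplasmic reticulum to the plasma membrane, had 1.09 and 1.42 late, against -0.05 and 0.02 early (1.27 ± 0.13, adjusted p = 0.00472). Mllt11, a small protein first found fused in leukaemia, had 0.49 and 0.92 late, against -0.45 and -0.62 early (1.24 ± 0.15, adjusted p = 0.0113). Each rested on 1 probe, printed here because both values depend on it; they lie at chr9:99210777-99210836 and chr3:95023232-95023291 of mm9, both on the minus strand.
Esyt3 probe: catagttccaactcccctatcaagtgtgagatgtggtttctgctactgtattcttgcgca
Mllt11 probe: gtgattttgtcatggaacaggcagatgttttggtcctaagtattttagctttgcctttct

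The treated channel carried the change of Esyt3. The treated signal of Esyt3 was 10.27 and 10.60 late, against 9.31 and 9.23 early, with the untreated signal between 9.18 and 9.36. Tmem268, a membrane protein, had 0.72 and 1.18 late, against -0.07 and -0.19 early. Slc43a2, a transporter of large neutral amino acids, was by its brighter probe above the untreated cells on all 4 arrays and further above late, with 1.30 and 1.44, against 0.41 and 0.67 early (0.83 ± 0.12, adjusted p = 0.0185). A dimmer Slc43a2 probe went the other way, with -0.26 and -0.35 late, against -0.01 and 0.11 early. A second amino acid transporter, Slc36a4, was also called higher (0.62 ± 0.12), while Slc7a1, which imports arginine, was called lower (-0.61 ± 0.11), so the 18 tested transporters held 2 calls up and 1 down with a median of -0.12, or 0.00 without the 6 h array. Cpt1a, which moves fatty acids into mitochondria, had 0.54 and 0.99 late, against -0.30 and -0.11 early (0.97 ± 0.15, adjusted p = 0.0232), the 1 call among 13 tested genes of fatty acid oxidation.

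Several of the other rises were in genes that lay below the untreated cells early. Enc1, an actin-binding kelch protein, had 0.11 and -0.03 late, against -0.82 and -0.84 early (0.87 ± 0.11, adjusted p = 0.0123), so both late arrays were close to the untreated cells. Phf13, a reader of histone methylation, had 0.42 and 0.06 late, against -0.71 and -0.59 early. Armc7 had 0.27 and 0.55 late, against -0.48 and -0.70 early. Bmf, a pro-apoptotic BH3-only protein, had 0.34 and 0.60 late, against -0.58 and -0.42 early (0.97 ± 0.12, adjusted p = 0.0132), and was the 1 call among 19 tested genes of the BCL2 family and apoptosis. Bbs4, Ankrd12 and Zfp958 completed the 12 largest rises with differences of 0.83 to 0.86.

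Of the circadian genes, 13 were tested and 2 were called, in opposite directions. Dbp, an activator at D-box elements, had 0.77 and 0.65 late, against -0.04 and 0.12 early (0.68 ± 0.11, adjusted p = 0.0283). Nfil3, a repressor at the same elements, had 0.00 and -0.61 late, against 0.87 and 0.90 early (-1.19 ± 0.17, adjusted p = 0.0162). For Dbp the untreated channel changed by -0.40 and the treated one by 0.28, so both channels entered its ratio. In the list of TGF-beta signalling, 1 of 19 tested genes was called: Tgfbr1, the type I receptor, had 0.70 and 0.91 late, against -0.05 and 0.13 early (0.77 ± 0.12, adjusted p = 0.0232). Smad6, an inhibitory SMAD outside the list that was chosen after its values were seen, was also called higher (0.27 and 0.08 late, against -0.51 and -0.43 early). Skil, a SMAD co-repressor, had a larger but less even difference, 0.47 and 1.56 late, against -0.14 and -0.25 early, and missed the threshold (1.21 ± 0.26, or 0.66 without the 6 h array; adjusted p = 0.059).

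Hspa8, the constitutive cytosolic chaperone, was called lower (-0.58 ± 0.11, adjusted p = 0.0377), 1 of 14 tested heat-shock chaperones, and its brightest probe was below the untreated cells on all 4 arrays. A second Hspa8 probe gave a difference of -0.09 and lay above the untreated cells at 2 h (0.27), so the 2 probes disagree. Tra2a, a splicing regulator, was 1 called fall among 34 splicing factors. No call was made among 49 cytosolic ribosomal proteins, 36 proteasome subunits, 33 subunits of oxidative phosphorylation or 32 cell cycle and replication genes. Their medians were 0.11, 0.00, 0.02 and -0.02. In that order, limma gave 6, 7, 5 and 4 of them an unadjusted p under 0.05, against 2444 of all 14472 genes. The 19 tested NRF2 antioxidant genes had a median of 0.13 with 16 positive, 0 called and 4 at an unadjusted p under 0.05. Of all 37 lists, 20 held at least 1 called member, and 23 had a median within 0.1 of 0. Neat1, a long non-coding RNA of paraspeckles, stayed above the untreated cells on all 4 arrays, with 1.23 and 1.46 late, against 0.86 and 0.94 early (adjusted p = 0.0928).

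Other named genes with a further kept probe were compared across their probes. For Nfil3, Plaur and Ticam1 the second probe gave -1.06, -0.59 and -0.74, and for Tmem268 the other probes gave 1.05 and 0.52, in the same direction as the probes used. The brightest probes of Dusp4, Skil and Ankrd12 gave larger differences than the others, which were -0.35 for Dusp4, 0.36 for Skil and 0.08 to 0.50 for Ankrd12. For Bmf, Cpt1a, Enc1, Irf8, Dhcr7, Phf13, Bbs4, Slc36a4 and Slc7a1 the second probe was dimmer and its difference kept the direction but was small, from 0.02 for Bmf to 0.21 for Phf13 in size. One of the 2 other Tra2a probes gave 0.02 and the other -0.30, against -0.64 for the probe used.

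The channels were also compared over all called genes, since a ratio can change through either. The late minus early change was larger in the treated than in the untreated channel for 80 of the 82 genes called higher and 79 of the 83 called lower, against 9518 of all 14472 genes. The median change of the 82 was 0.63 in the treated and -0.07 in the untreated channel, and that of the 83 was -0.84 and -0.05. Ccl3 was the clearest exception among the large falls. P4ha1 changed by -1.61 in the treated and -0.63 in the untreated channel. Dusp4 changed by -1.32 in the treated and -0.57 in the untreated channel, and Hspa8 by -1.18 and -0.60.

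**Figure D5:**
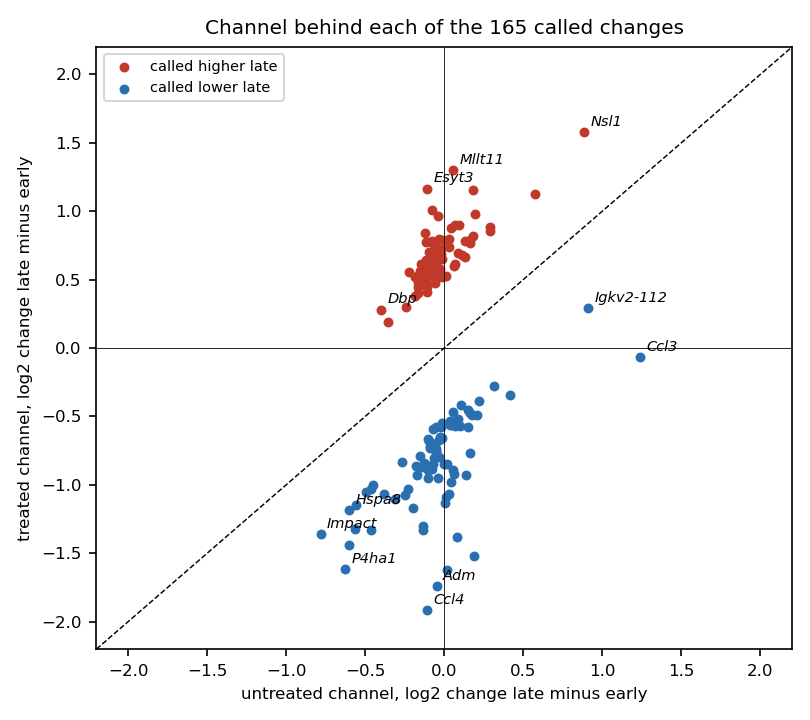
Late minus early log2 change of the treated channel (vertical axis) against that of the untreated channel (horizontal axis) for the 165 called genes, those higher late in red and lower late in blue, with the line of equal change dashed. Most points lie along the vertical axis, and Ccl3 lies at 1.24 on the horizontal axis and -0.07 on the vertical one.

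The change between phases was set against that with B. clausii for each gene. Limma called 0 of the 14472 genes for a difference between the bacteria, with 143 at an unadjusted p under 0.05, so no gene can be called particular to L. acidophilus. Ccl4 had a late minus early difference of -1.81 with L. acidophilus and -1.82 with B. clausii, and Adm -1.69 and -1.26. The largest gaps among the chemokines were for Ccl2 (-0.34 with L. acidophilus, -1.26 with B. clausii) and Ccl7 (0.04 with L. acidophilus, -0.95 with B. clausii), with an unadjusted p of 0.00597 and 0.00493 and an adjusted p of 1 for both. The sources used here do not say whether the bacteria shared their untreated cells, and slide and bacterium cannot be told apart.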

How the data were processed

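RNA of treated and untreated RAW264.7 cells was measured on 2-colour Agilent 4x44K mouse arrays of 41174 probes. The deposited scanner files hold red and green spot intensity values, not normalized between channels, and a log10 ratio of red over green, made with Agilent Feature Extraction 10.7.3.1 per the file headers (10.5.1.1 per the submitters' processing notes). The series matrix holds the authors' log10 ratios, which matched those of the scanner files within 0.00499; it was used only as an alternative, and its columns have a median of 0. Mean intensities were corrected with normexp (offset 50), with local background outliers above 3 times the array's median replaced by that median, and normalized by loess within each array (limma 3.58.1, R 4.3.3). Control spots and spots flagged as outliers were left out. In 21044 probes either channel stood well over background on 2 or more of the 4 arrays. Those with an unflagged value on all 4 arrays were kept (20849). The brightest probe stood for a gene, which gave 14472 genes (12723 with a symbol, 4761 with several kept probes). Log2 ratios of 4 h and 6 h were set against those of 1 h and 2 h with lmFit and eBayes (prior degrees of freedom 8.24), Benjamini-Hochberg adjusted over all genes, and a call is an adjusted p under 0.05. Single channels were recovered after Aquantile scaling. Symbols came from RefSeq by accession or symbol, otherwise from the files.

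Genes were named by rule: the 12 largest called rises and falls with a symbol, called members of the lists (up to 4 a direction), and a panel of stress, chemokine and immediate early genes. The members, lists and panel were chosen with earlier results of these data known. The precision is limited by the number of arrays. The limma step was tested on simulated ratios. Alternatives covered background, normalization, filter, probe choice, prior, single channels and each array left out.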

Additional observations from a re-analysis of the deposited data

How the results depend on the processing

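The calls depended more on the processing than the direction of the changes did. All 165 called genes kept their direction in each alternative built on ratios that gave them a value. Where both channels had to be well above background, 164 of 164 did, and in the treated channel alone 164 of 165. Part of this was fixed in advance, as another prior, the spread of all 8 arrays and the looser threshold leave the differences unchanged. The filter on both channels kept the same probes and ratios for the 164 genes, so their direction could not turn there. With 1 array left out the direction could not turn, as both late ratios of all 165 lay on 1 side of both early ones. The same held for 7036 of all 14472 genes. The number of calls, in total with those higher and lower late, was 165 (82 and 83) as reported. It was 1 (0 and 1) with local backgrounds as deposited, 0 (0 and 0) with a normexp offset of 0, 43 (24 and 19) without background correction, and 0 (0 and 0) with the scanner software's processed signals and with the series matrix ratios. At an unadjusted p under 0.05, limma had 1914 genes with the offset of 0, 1554 with the processed signals and 1569 with the series matrix. Median centring gave 72 (42 and 30), loess with scaling between arrays 270 (121 and 149), no filter 161, the filter on both channels 260 (118 and 142), the mean over probes 50 (23 and 27), a trended robust prior 232, the spread of all 8 arrays 22 (15 and 7), and an adjusted p under 0.1 565 (240 and 325). The treated channel alone gave 0 (0 and 0; 1800 at an unadjusted p under 0.05) and the untreated channel alone 0 (0 and 0; 636). Leaving out 1 array gave 0 to 1913 calls, 0 to 856 higher and 0 to 1057 lower; the lone array of a phase was then assumed to vary like the others. The difference between the bacteria gave 0 calls, 1 with the processed signals and 0 with time as a block (487 at an unadjusted p under 0.05).

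Signs turned in the untreated channel alone, which by construction holds only that channel's share of a ratio. There, with the sign turned so that it adds to the ratio, the late minus early value was -0.0568 for Mllt11, -0.18 for Bmf, -0.067 for Ankrd12, -0.0459 for Zfp958, -0.0284 for Tgfbr1 and -0.17 for Slc36a4. It was 0.11 for Ccl4, 0.046 for Adm, 0.14 for Nfil3, 0.14 for Ddit3, 0.57 for Dusp4, 0.0537 for Dusp1, 0.0214 for Traf1, 0.15 for Ticam1, 0.0042 for Dhcr7, 0.60 for Hspa8, 0.63 for P4ha1, 0.0112 for Cd68, 0.23 for Adamts1 and 0.10 for Plaur. Bhlhe40, a clock repressor that was not called, had 0.05 with all arrays, -0.43 without the 4 h array (adjusted p = 0.0217) and 0.54 without the 6 h array (adjusted p = 0.00689). For the other changes in the calls the cause was not tested. No paired analysis of the late and early arrays was possible because each array is the only one of its time. Signal over background limits the dim cytokine genes, of which Il1b is an example.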

Other observations

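Zinc finger genes were frequent among the genes called higher late, which was seen only after the values were known and was not tested. Of the 73 genes called higher that had a gene symbol, 10 had one starting with Zfp (13.7%), against 0 of the 79 called lower and 270 of the 12723 tested genes with a symbol (2.12%). The median late minus early difference of all 270 was 0.112, and 195 of them were positive.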
